A study of Oryza sativa with 60 samples.

Results

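The 200 genes described here had a higher mean level at each of the 4 sizes from 1.6 to 2.5 mm than at any smaller size of rice anthers. They were chosen from 35594 gene IDs by their measured levels. For each gene, FPKM (fragments scaled to transcript length and library size) were summed over its transcript entries, and the mean of log2(FPKM + 1) was taken at each of 10 anther lengths. The gap of a run of consecutive sizes is the lowest of these means inside the run minus the highest outside it. A gene met the rule if its largest gap among 54 possible runs was that of 1.6 to 2.5 mm, if this gap was at least 1 log2 unit, and if its mean was at least 5 FPKM at each of the 4 sizes. The rule was met by 294 genes, and the 200 with the largest gap were kept. The difference between the 4 sizes of the run and the 6 smaller sizes is therefore how the genes were chosen, and it is given below as a description with no test.

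The anthers came from wild-type Kitaake rice, a japonica cultivar, and carried no mutation or treatment in any group. Plants were grown in a greenhouse, and the groups differed by anther length, which was 0.4, 0.6, 0.8, 1.0, 1.2, 1.4, 1.6, 1.8, 2.0 or 2.5 mm. Each length had 3 biological replicates, and each sample was total RNA of 20 to 30 pooled whole anthers, so wall layers, connective tissue and pollen were measured together. The values are from the 30 mRNA libraries (poly(A)-selected, strand-specific preparation), and the size in the deposited name matched the label in each of these. The 30 small RNA libraries of the study were not used here. Anther length is the label, and no developmental stage was given.

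Anther length serves in rice as a guide to the stage of male development. As an anther lengthens, its pollen mother cells pass through meiosis and release microspores, the tapetum that lines the locule supplies them with wall material and then breaks down, and the microspores divide, store starch and mature into pollen. A large share of the genes expressed in pollen is known to start late in this course, after the microspores have been released. Which tissue expressed the genes below cannot be read from these data: the files give no gene names, and 0 of the 200 IDs occur in the RefSeq rice gene table. Functions and cell type markers are therefore not given, and in whole anthers fewer cells of a type and less RNA per cell cannot be told apart.

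The sum of FPKM per library ranged from 420455 to 614878, and 17391 to 21213 genes per library reached 1 FPKM. Replicates 1, 2 and 3 of 2.5 mm had 17391, 17924 and 19918 such genes, and libraries of the other sizes had at least 19389. The depth behind the values is unknown, since the files hold no counts. In 3 libraries the 200 genes stood apart from the other libraries of the same size: 1.2 mm replicate 1 and 1.4 mm replicate 2 lay higher outside the run, and 2.5 mm replicate 3 lay higher inside it. Counts and medians over the 200 genes in the tested comparisons that moved by over 1.5 times without 1 of these libraries are given with and without it.

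Across the series, most of the genes were below 1 FPKM in anthers of up to 1.0 mm and above 5 FPKM from 1.6 mm on. The median FPKM of the 200 genes in a library averaged 0.368 ± 0.168 in 0.4 mm anthers (mean ± SD, n = 3 libraries), and 0.324 ± 0.0440, 0.335 ± 0.0929 and 0.273 ± 0.123 in those of 0.6, 0.8 and 1.0 mm. At 1.2 mm it was 0.689 ± 0.521 and at 1.4 mm 1.61 ± 1.15. Inside the run it was 20.6 ± 1.84 for 1.6 mm, 26.8 ± 1.77 for 1.8 mm, 37.5 ± 2.26 for 2.0 mm and 27.0 ± 9.86 for 2.5 mm. The 4 smallest sizes differed from each other by less than their spread. Libraries of 1.2 and 1.4 mm overlapped, libraries of 1.6, 1.8 and 2.0 mm did not, and those of 2.5 mm, at 19.2, 23.6 and 38.1 FPKM, reached over all 3 of these sizes.

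**Figure D1:**
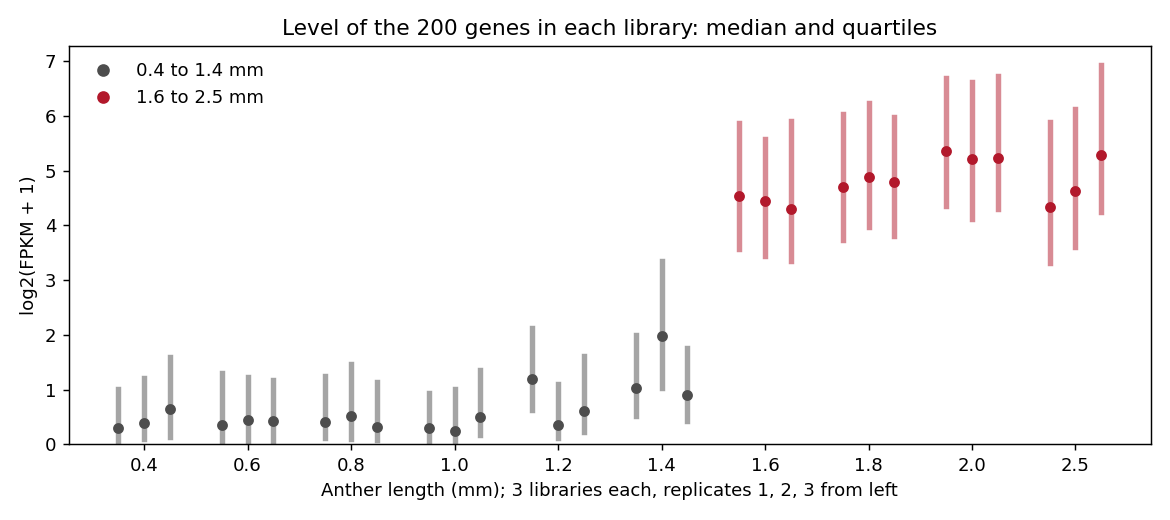
Level of the 200 genes in each of the 30 libraries, as log2(FPKM + 1), with the median as a point and the lower to upper quartile as a bar; sizes run from left to right and replicates 1, 2 and 3 stand side by side. Medians of the 1.6 to 2.5 mm libraries lie between 4.30 and 5.36, those of the 0.4 to 1.4 mm libraries between 0.24 and 1.98, the highest of which is 1.4 mm replicate 2.

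The step lay between 1.4 and 1.6 mm. The difference of the means, 1.6 minus 1.4 mm, was 2.98 log2 units in the median gene and ranged from 1.58 to 7.61. In the 3 libraries of 1.6 mm, 200 of 200 genes reached 1 FPKM, against 100, 150 and 94 genes in replicates 1, 2 and 3 of 1.4 mm. The 200 genes held 4.55%, 4.29% and 4.76% of all FPKM at 1.6 mm, against 0.206%, 0.820% and 0.166% at 1.4 mm. In libraries of 0.4 to 1.0 mm the share was 0.0640% to 0.108%. It was 4.97%, 5.72% and 5.49% at 1.8 mm and 8.92%, 7.26% and 7.44% at 2.0 mm. At 2.5 mm it was 2.66% and 3.06% in replicates 1 and 2, and 7.26% in replicate 3, close to the share of 2.0 mm replicate 2.

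Levels inside the run were spread widely. Run means, over the 12 libraries of 1.6 to 2.5 mm, ranged from 6.51 to 4485 FPKM with a median of 31.3. In 41 genes they were at least 100 FPKM and in 6 at least 1000 FPKM. The 5 most abundant genes held 42.2% of the summed run means. Before the run, 60 genes stayed under a mean of 1 FPKM at each of the 6 sizes, and 61 genes had a mean of at least 5 FPKM at some size. No gene of the 200 was listed at 0 in every one of the 18 smaller-size libraries, and none was listed at 0 in any of the 12 libraries of the run.

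**Figure D2:**
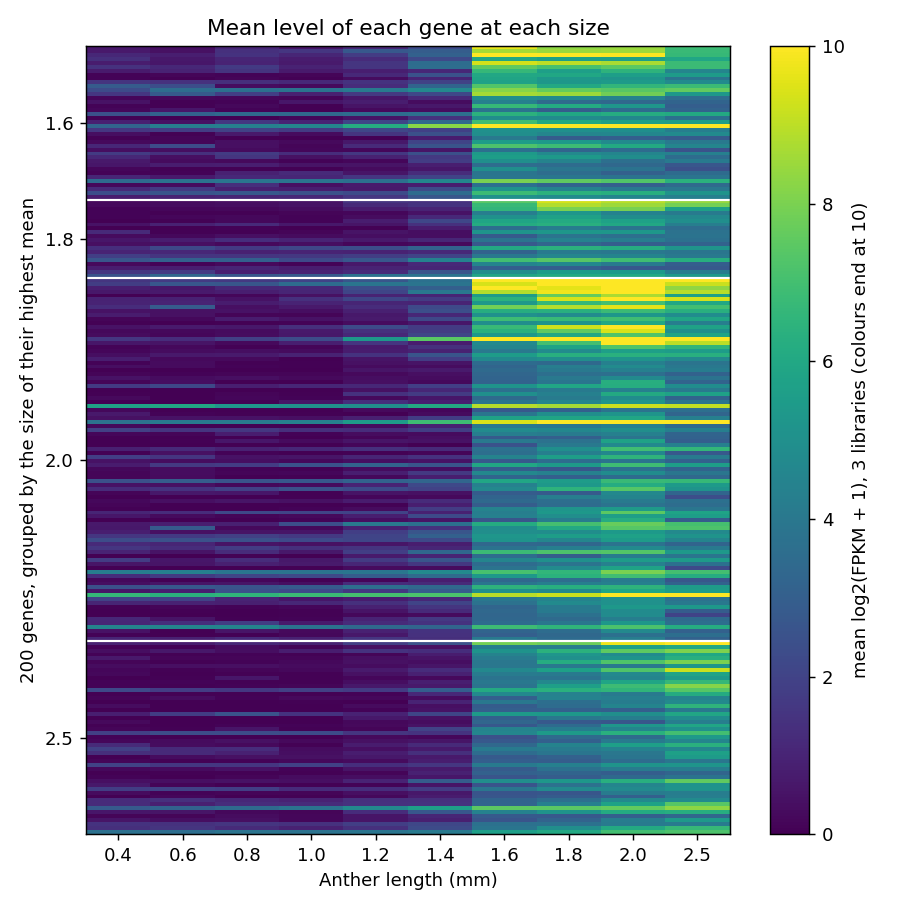
Mean log2(FPKM + 1) of each of the 200 genes (rows) at each anther length (columns), n = 3 libraries per size, with rows grouped by the size of the run at which the gene was highest; white lines part the groups. The colour changes between 1.4 and 1.6 mm in all 4 groups, and the groups highest at 1.6, 1.8, 2.0 and 2.5 mm hold 39, 20, 92 and 49 genes.

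The gaps ranged from 1.57 to 6.62 log2 units with a median of 2.28, and 13 genes had a gap of at least 4. The largest gap was that of OsKitaake03g363000.v3.1, with 1359, 1086 and 1430 FPKM in the 1.6 mm libraries and 2032, 3749 and 2523 FPKM in those of 1.8 mm. At 2.0 mm it had 7473, 5205 and 4805 FPKM, and at 2.5 mm 707, 1435 and 6784 FPKM. Its 18 libraries of smaller anthers had 0.564 to 87.9 FPKM with a median of 2.29. The highest of these was 1.2 mm replicate 1, where the other replicates of that size had 0.877 and 0.564 FPKM. At 2.5 mm replicate 3 stood close to the 2.0 mm libraries and replicates 1 and 2 below them.

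The next largest gap, 5.89, was that of OsKitaake02g028600.v3.1. It had 82.6 to 1068 FPKM in the 12 libraries of the run, with a median of 413, against 0.0230 to 13.2 FPKM with a median of 0.396 in the 18 others. Its highest value outside the run was again that of 1.2 mm replicate 1. The gene with the highest run mean, OsKitaake01g228800.v3.1, ranked 117 by gap, at 2.18. Its mean log2(FPKM + 1) was already 8.22 at 1.4 mm, with 197, 1354 and 97.1 FPKM. In the run this mean went from 12.5 at 1.6 mm down to 10.4 at 2.5 mm, and both ends narrowed the gap. Its 1.6 mm libraries lay close together at 5780, 5987 and 5806 FPKM, and its 2.5 mm libraries had 573, 1018 and 4173 FPKM.

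At the limit of 200 genes the values changed little. The last gene kept, OsKitaake03g048000.v3.1, had a gap of 1.57 and 13.7 to 132 FPKM in the run (median 58.3), against 2.96 to 19.1 FPKM outside it (median 7.82). The first gene past the limit, OsKitaake06g006300.v3.1, had a gap of 1.56 and 31.0 to 96.9 FPKM in the run (median 69.0), against 0.711 to 20.9 FPKM outside it (median 2.73). Library ranges of the last gene kept overlapped, and those of the first gene left out did not.

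**Figure D3:**
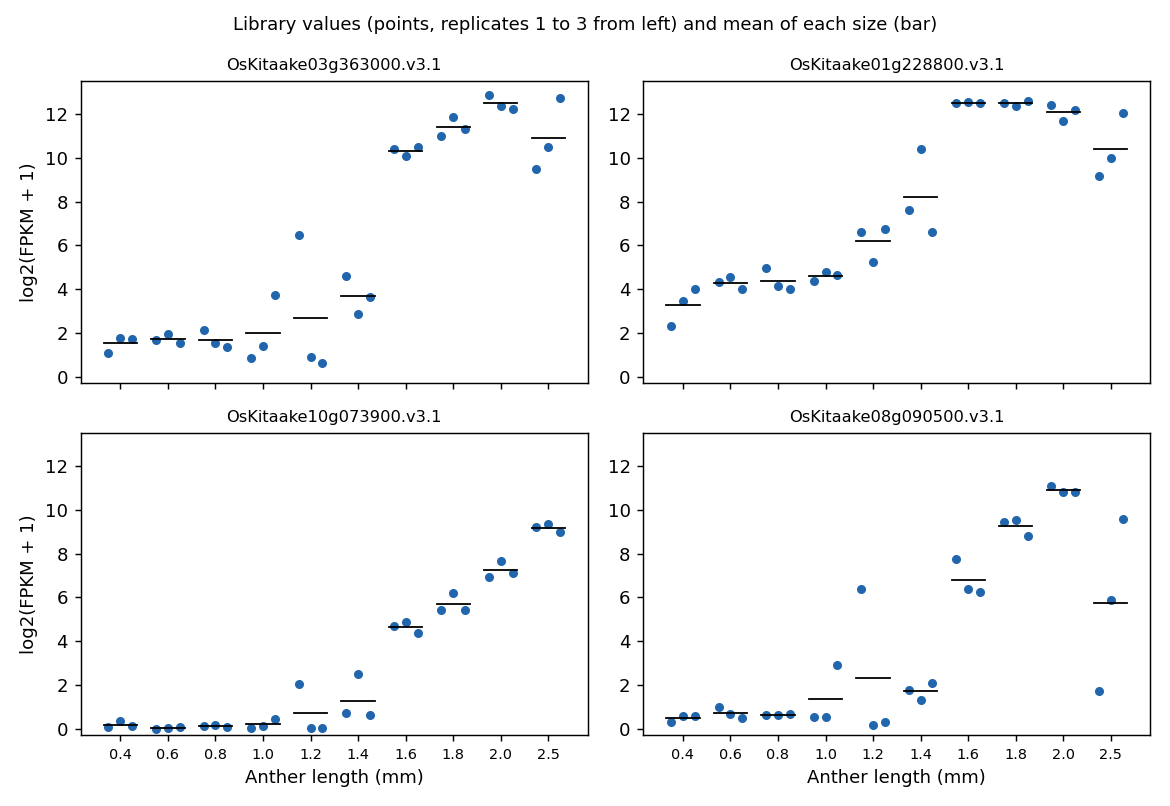
log2(FPKM + 1) of 4 of the genes in each of the 30 libraries (points; replicates 1, 2 and 3 from left) with the mean of each size (bar, n = 3). OsKitaake03g363000.v3.1 and OsKitaake08g090500.v3.1 are high in 1.2 mm replicate 1 and spread widely at 2.5 mm, OsKitaake01g228800.v3.1 is high in 1.4 mm replicate 2, and OsKitaake10g073900.v3.1 is highest at 2.5 mm in all 3 replicates.

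In 174 of the 200 genes every library of 1.6 to 2.5 mm lay above every library of 0.4 to 1.4 mm, where 2.64% of the 26091 tested genes did so. The rule used this contrast, so nothing is read from that count. A measure that the rule did not use was had by choosing 200 genes in the same way from 2 replicates of every size and reading the replicate left out. With replicate 1 left out, 159 of the 200 genes so chosen had a gap of at least 1 log2 unit in that replicate alone, where 1.74% of all tested genes did. With replicate 2 left out the count was 125 of 200 (1.06% of tested genes), and with replicate 3 left out 170 of 200 (2.48%). The median gap in the replicate left out was 1.96, 1.34 and 2.04 log2 units for replicates 1, 2 and 3, against -1.53, -1.53 and -0.98 over all tested genes. The lowest of the 3 values belongs to replicate 2. Each of the replicates 1, 2 and 3 holds 1 of the libraries that stood apart, and why the values differed was not tested. Of the genes chosen without replicates 1, 2 and 3, 170, 167 and 151 were among the 200 described here.

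Libraries of 1.6 mm carry the numbers 31, 36 and 40 in their deposited names, and the meaning of these numbers is not given in the sources used. The numbers 31 and 36 occur at no other size. Some libraries on either side of the step share a number, and they are described here with no test, since the genes were chosen for this difference in these libraries. Among names with the number 10, replicate 1 of 1.8 and of 2.0 mm lay above replicate 1 of 1.0, 1.2 and 1.4 mm in 200 of 200 genes, by a median of 3.90 log2 units, against 0.17 over all tested genes. Among names with the number 40, 1.6 mm replicate 3 lay above 0.8 and 1.2 mm replicate 3 in 200 of 200 genes, by a median of 3.53, against 0.09 over all tested genes. How many tested genes separated in the same way was not counted, and nothing is read from the 200 of 200. Without the 1.6 mm libraries, the run of 1.8 to 2.5 mm was met by 404 genes, and 152 of the 200 genes were among its first 200.

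Outside the run, single libraries set the highest value for most genes. Of the 200 genes, 114 had their highest value of the 18 smaller-size libraries in 1.4 mm replicate 2 and 38 in 1.2 mm replicate 1. In 1.4 mm replicate 2, 158 genes lay above both other 1.4 mm libraries, 79 of them at least 2-fold on the FPKM + 1 scale, where 57.3% and 4.37% of all tested genes did so. In 1.2 mm replicate 1, 128 genes lay above both other 1.2 mm libraries, 34 of them at least 2-fold, where 35.9% and 0.751% of tested genes did. Of the 38 genes highest in 1.2 mm replicate 1, 26 had their highest run mean at 2.0 mm and 1 at 1.6 mm. Of the 114 genes highest in 1.4 mm replicate 2, 48 had their highest run mean at 2.0 mm and 25 at 1.6 mm. Without 1.2 mm replicate 1, 1.4 mm replicate 2 and 2.5 mm replicate 3, which were left out after seeing the data, 194 of the 200 genes had no overlap between the groups, where 999 of the tested genes had none, and 169 were again among the first 200 of the 255 genes that met the rule.

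Genes chosen by the same rule for a pair of neighbouring runs were read in the same libraries. For the run of 1.6 to 2.0 mm (231 genes met the rule, 200 kept), the median log2(FPKM + 1) at 1.4 mm was 1.55, 2.87 and 1.28 in replicates 1, 2 and 3. For the run of 2.0 to 2.5 mm (243 met the rule, 200 kept) it was 0.43, 0.34 and 0.69. In 1.4 mm replicate 2 the 200 genes of 1.6 to 2.5 mm (1.02, 1.98 and 0.90) and those of 1.6 to 2.0 mm were raised above the other replicates, and the genes of 2.0 to 2.5 mm were not. In 1.2 mm replicate 1 the genes of 2.0 to 2.5 mm had a median of 0.93, against 0.19 and 0.26 in the other replicates, the 200 genes 1.19, against 0.35 and 0.60, and the genes of 1.6 to 2.0 mm 1.16, against 0.73 and 1.13. At 2.5 mm the genes of 1.6 to 2.0 mm had 1.19, 1.55 and 3.31 in replicates 1, 2 and 3. What sets these libraries apart was not tested.

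**Figure D4:**
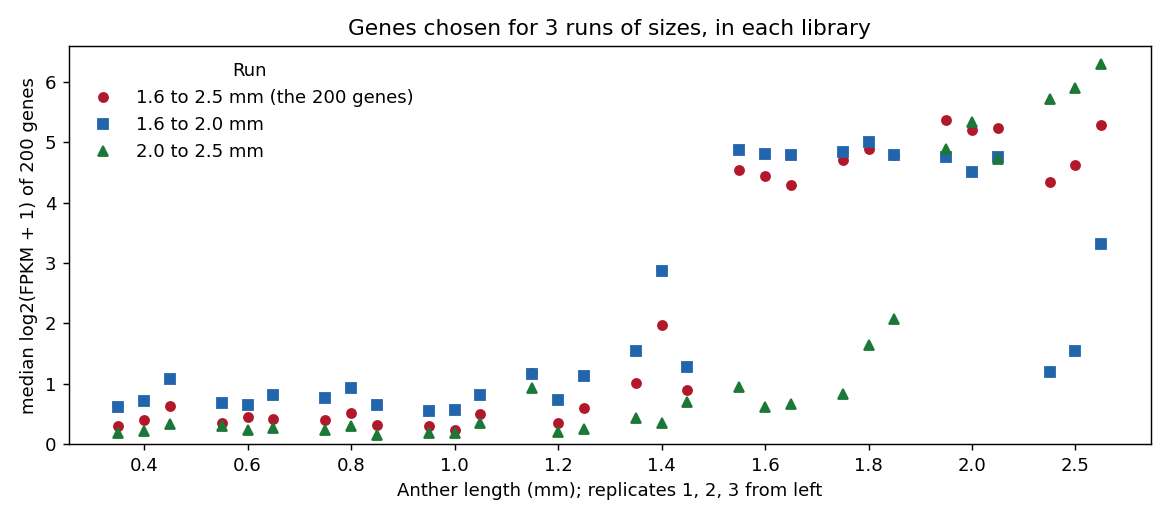
Median log2(FPKM + 1) in each of the 30 libraries of 200 genes chosen for each of 3 runs of sizes by the same rule; replicates 1, 2 and 3 from left. In 1.4 mm replicate 2 the genes of the runs that start at 1.6 mm lie at 1.98 and 2.87 and those of 2.0 to 2.5 mm at 0.34, and in 2.5 mm replicate 3 the genes of 1.6 to 2.0 mm lie at 3.31.

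Changes among the sizes outside the run, and among those inside it, are not the contrast that chose the genes. The rule bounds them all the same: a gene with a larger gap for another run was not kept, and the floor of 5 FPKM at every size of the run limits falls inside it. The 200 genes were tested in limma on log2(FPKM + 1) with all 26091 genes that reached 1 FPKM in at least 3 libraries. All 200 passed this filter, which the floor of 5 FPKM at every size of the run makes nearly certain. Calls required a change of at least 1 log2 unit and an adjusted p (Benjamini-Hochberg) under 0.05. The shares of tested genes given beside the counts are those called in the same direction. Inside the run they are not shares of genes of like level: the 200 averaged at least 5 FPKM at each of its sizes, which tested genes need not.

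Before the run, few of the 200 genes were called higher at 1.4 mm than at 1.2 mm, though most of their changes were positive. In that comparison 7 of the 200 (3.5%) were called higher, where 2.97% of tested genes were, a share close to the background. None was called lower (2.29% of tested genes), but 104 of the 200 averaged under 1 FPKM at 1.2 mm. From there a fall of 1 log2 unit is not possible on this scale. At an unadjusted p under 0.05 in limma, 1 was lower and 59 were higher. Shares of tested genes at an unadjusted p were not taken, here or for the fit on these sizes alone. Of the 200 changes 166 were positive and 34 negative, and 137 genes had their highest mean outside the run at 1.4 mm. The median change of the 200 was 0.41 log2 units, against 0.07 over all tested genes. Without 1.4 mm replicate 2 these medians were 0.13 and -0.01, without 1.2 mm replicate 2 they were 0.26 and 0.06, and without 1.4 mm replicate 2 and 1.2 mm replicate 1 together 0.26 and -0.01. The count called higher moved with single libraries: it was 1 without 1.4 mm replicate 2, 18 without 1.2 mm replicate 1, and 7 without both. It was also 1 without 1.2 mm replicate 2, 18 without 1.2 mm replicate 3, and 22 and 30 without 1.4 mm replicates 1 and 3. For these refits the share of tested genes called was not taken. A limma fit on these sizes alone, with 6 libraries, called 0 of the 200 (10 higher and 1 lower at an unadjusted p under 0.05) and 0 of all tested genes.

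The largest of these rises was that of OsKitaake09g082800.v3.1, which had 148, 316 and 108 FPKM at 1.4 mm, against 57.3, 9.18 and 108 FPKM at 1.2 mm (log2 change 2.10, standard error 0.557, limma adjusted p = 0.0213). Its groups met at 108 FPKM, and its call was lost without 1.2 mm replicate 2 (adjusted p = 0.292), without 1.4 mm replicate 2 (0.141) and without 1.4 mm replicate 2 and 1.2 mm replicate 1 together (0.116). OsKitaake03g278400.v3.1 had 2.63, 26.5 and 3.76 FPKM at 1.4 mm, against 0.910, 0.624 and 1.49 FPKM at 1.2 mm (log2 change 1.98, standard error 0.418, limma adjusted p = 0.00428). Replicate 2 of 1.4 mm stood apart and was close to the 1.6 mm libraries of this gene, at 31.1, 30.3 and 29.1 FPKM, and the groups did not overlap. Without that replicate and 1.2 mm replicate 1 its log2 fold change was 1.05 (adjusted p = 0.0233).

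Against the smallest anthers more of the genes were raised at 1.4 mm. Of the 200, 55 (27.5%) were called higher at 1.4 mm than at 0.4 mm, where 11.0% of tested genes were, and 2 (1.0%) were called lower, where 18.5% were. At 0.4 mm 132 of the 200 averaged under 1 FPKM, from which a fall of 1 log2 unit is not possible on this scale. Nothing is therefore read from the low number of falls. The median change was 0.73 log2 units, against -0.28 over all tested genes. Without 1.4 mm replicate 2 these medians were 0.35 and -0.37, and 36 genes were called higher. Without 1.4 mm replicate 1 the medians were 0.83 and -0.17. With a pseudocount of 0.1, 98 genes were called higher. Neither refit count has a share of tested genes beside it, since none was taken. OsKitaake09g082800.v3.1 had 148, 316 and 108 FPKM at 1.4 mm, against 2.32, 2.07 and 1.61 FPKM at 0.4 mm (log2 change 5.86, standard error 0.557, limma adjusted p = 3.66e-09). OsKitaake01g228800.v3.1 had 197, 1354 and 97.1 FPKM at 1.4 mm, against 4.07, 10.1 and 15.1 FPKM at 0.4 mm (log2 change 4.94, standard error 0.663, limma adjusted p = 1.02e-06). Neither gene overlapped between these sizes, and both were highest at 1.4 mm in replicate 2.

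The 2 falls by 1.4 mm were small beside the step that followed. OsKitaake12g179900.v3.1 had 6.64, 15.2 and 6.07 FPKM at 1.4 mm, against 15.2, 26.5 and 24.8 FPKM at 0.4 mm (log2 change -1.24, standard error 0.342, limma adjusted p = 0.00431). The sizes met at 15.2 FPKM, and at 1.6 mm this gene had 130, 98.7 and 115 FPKM. OsKitaake04g314900.v3.1 had 0.149, 1.52 and 0.509 FPKM at 1.4 mm, against 2.06, 2.76 and 3.55 FPKM at 0.4 mm (log2 change -1.19, standard error 0.388, limma adjusted p = 0.0136). The call of the last gene was lost without 0.4 mm replicate 3 (adjusted p = 0.0553) or without 1.4 mm replicate 1 (0.0849). The call of OsKitaake12g179900.v3.1 was lost with quantile normalization, where the change was -0.98 log2 units.

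Once on, 68 of the genes rose further by 2.0 mm. These 68 of 200 (34.0%) were called higher at 2.0 mm than at 1.6 mm, where 6.26% of tested genes were, and 2 (1.0%) were called lower, where 5.16% were. Since the rule limits falls inside the run, nothing is read from the low number of falls. Tested genes may also lie too low at both sizes to be called. The median change was 0.75 log2 units, against -0.03 over all tested genes, and 150 of the 200 changes were positive. Leaving out single libraries gave 53 to 61 genes called higher, and a pseudocount of 0.1 gave 37, with no share of tested genes taken in these refits. At 2.0 mm 92 of the 200 genes had their highest run mean.

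The largest rise was that of OsKitaake11g008000.v3.1, which had 1407, 1004 and 1136 FPKM at 2.0 mm, against 47.7, 21.3 and 15.8 FPKM at 1.6 mm (log2 change 5.48, standard error 0.723, limma adjusted p = 2.66e-06). OsKitaake02g316700.v3.1 had 2371, 2020 and 2125 FPKM at 2.0 mm, against 222, 43.2 and 57.4 FPKM at 1.6 mm (log2 change 4.71, standard error 0.899, limma adjusted p = 3.58e-04). Both were on at 1.6 mm at a small part of the level they reached later, with no overlap between these sizes. Both also stood out in 1.2 mm replicate 1: the first had 20.8 FPKM there, and 0.0303 and 0.0821 FPKM in replicates 2 and 3, and the next 43.3 FPKM, and 0.365 and 0.289 FPKM.

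The 2 falls at 2.0 mm were smaller. OsKitaake06g250900.v3.1 had 46.2, 25.7 and 43.9 FPKM at 2.0 mm, against 106, 67.8 and 154 FPKM at 1.6 mm (log2 change -1.45, standard error 0.477, limma adjusted p = 0.0327). OsKitaake04g151300.v3.1 had 20.4, 7.55 and 14.3 FPKM at 2.0 mm, against 29.9, 27.6 and 35.9 FPKM at 1.6 mm (log2 change -1.18, standard error 0.368, limma adjusted p = 0.0233). Neither gene overlapped between the sizes. Each call was lost without 1.6 mm replicate 1 (adjusted p = 0.0824 and 0.0535), without 1.6 mm replicate 3 (0.171 and 0.0938) and without 2.0 mm replicate 2 (0.150 and 0.172), and that of OsKitaake06g250900.v3.1 also without 2.0 mm replicate 3 (0.0532), with no filter (0.0503) and after rescaling to TPM, which gives every library the same sum (0.0638). With a pseudocount of 0.1 neither was called (adjusted p = 0.224 and 0.105).

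At 2.5 mm, set against 2.0 mm, falls outnumbered rises among the 200 genes and among all genes tested. Of the 200, 53 (26.5%) were called lower at 2.5 mm, where 23.4% of tested genes were, and 17 (8.5%) were called higher, where 5.37% were. The median change was -0.51 log2 units, against -0.48 over all tested genes. With quantile normalization, which gives every library the same distribution, these medians were -0.17 and -0.06. Without 2.5 mm replicate 3 they were -0.80 and -0.64, and without 2.5 mm replicate 1 -0.31 and -0.38. The number of falls rested on the 2.5 mm libraries: it was 84 without 2.5 mm replicate 3 and 31 without 2.5 mm replicate 1. How many tested genes were called lower in those refits was not counted, though their median moved the same way. In replicate 3, 151 of the 200 genes lay above both other 2.5 mm libraries, where 70.8% of tested genes did. A fit on these sizes alone, with 6 libraries, called 7 of the 200 genes lower, where 5.81% of tested genes were, and 9 higher, where 2.75% were, so rises outnumbered falls among the 200 in that fit.

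Within libraries whose names share a number, the change from 2.0 to 2.5 mm differed. For the number 11, 2.5 mm replicate 1 lay below 2.0 mm replicate 2 in 145 of the 200 genes, with a median difference of -0.77 log2 units, against -0.74 over all tested genes. For the number 13, 2.5 mm replicate 3 lay below 2.0 mm replicate 3 in 95 of the 200 genes, with a median of 0.03, against -0.19 over all tested genes. Each of these is a single pair of libraries with no test, and the share of tested genes that lay below was not taken.

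The genes with the largest falls at 2.5 mm had been higher at 2.0 than at 1.6 mm. OsKitaake08g090500.v3.1 had 2.35, 58.6 and 768 FPKM at 2.5 mm, against 2187, 1798 and 1805 FPKM at 2.0 mm (log2 change -5.17, standard error 1.28, limma adjusted p = 0.00192), after 214, 82.5 and 74.8 FPKM at 1.6 mm. OsKitaake11g037600.v3.1 had 2.17, 26.6 and 351 FPKM at 2.5 mm, against 596, 777 and 646 FPKM at 2.0 mm (log2 change -4.42, standard error 0.975, limma adjusted p = 6.80e-04), after 90.6, 81.2 and 72.7 FPKM at 1.6 mm. In both genes the 2.5 mm libraries lay far apart, with replicate 3 highest, and none reached the 2.0 mm libraries. In 2.5 mm replicate 1 both were below their highest library of smaller anthers, 1.2 mm replicate 1, which had 82.8 FPKM of the first and 13.6 FPKM of the next. Neither was called in a fit on these sizes alone (adjusted p = 0.0993 and 0.101).

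Among the 17 rises, OsKitaake11g035500.v3.1 had 177, 163 and 11.0 FPKM at 2.5 mm, against 19.4, 12.8 and 16.8 FPKM at 2.0 mm (log2 change 2.04, standard error 0.578, limma adjusted p = 0.00520). Its replicate 3 lay below all 3 libraries of 2.0 mm, and the call was lost without 2.5 mm replicate 1 (adjusted p = 0.0721) or replicate 2 (0.0640). OsKitaake07g098700.v3.1 had 128, 125 and 44.5 FPKM at 2.5 mm, against 17.4, 29.4 and 20.4 FPKM at 2.0 mm (log2 change 1.98, standard error 0.290, limma adjusted p = 9.08e-06), with no overlap. In a fit on these sizes alone the adjusted p was 0.192 and 0.0519.

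Set end against end, the levels of 2.5 mm were not far from those of 1.6 mm in the median gene, while single genes had moved both ways. At 2.5 mm 51 of the 200 genes (25.5%) were called higher than at 1.6 mm, where 9.06% of tested genes were, and 29 (14.5%) were called lower, where 30.0% were. The floor of 5 FPKM limits such falls, so nothing is read from their lower share. The median change was 0.13 log2 units, against -0.53 over all tested genes. The sign of the first median depended on the processing: it was -0.04 after rescaling to TPM, 0.44 with quantile normalization and -0.20 without 2.5 mm replicate 3. Of the called genes 63.8% were higher on the deposited FPKM, 75.6% with quantile normalization and 54.9% after rescaling to TPM. Without 2.5 mm replicate 3 the majority turned, with 44 genes called higher and 58 lower, so that 43.1% were higher. Without 2.5 mm replicate 1, 58 were called higher and 19 lower. With single libraries left out, the median over all tested genes ranged from -0.69 to -0.42 log2 units. Shares of tested genes called were not taken in these fits.

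The genes that gained most over the run were OsKitaake10g073900.v3.1 and OsKitaake04g220000.v3.1. The first had 594, 645 and 505 FPKM at 2.5 mm, against 25.0, 28.2 and 19.9 FPKM at 1.6 mm (log2 change 4.53, standard error 0.414, limma adjusted p = 1.57e-09). It climbed through 41.9, 72.6 and 41.9 FPKM at 1.8 mm and 120, 198 and 139 FPKM at 2.0 mm, so no size overlapped the next. OsKitaake04g220000.v3.1 had 304, 397 and 202 FPKM at 2.5 mm, against 16.4, 14.2 and 10.5 FPKM at 1.6 mm (log2 change 4.33, standard error 0.302, limma adjusted p = 9.01e-12), and climbed in the same way.

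The genes that lost most were OsKitaake04g122700.v3.1 and OsKitaake06g250900.v3.1. The first had 40.7, 49.3 and 520 FPKM at 2.5 mm, against 1748, 1316 and 2027 FPKM at 1.6 mm (log2 change -4.02, standard error 0.872, limma adjusted p = 3.55e-04). OsKitaake06g250900.v3.1 had 2.36, 4.59 and 26.7 FPKM at 2.5 mm, against 106, 67.8 and 154 FPKM at 1.6 mm (log2 change -3.70, standard error 0.477, limma adjusted p = 4.85e-07). In both, replicate 3 of 2.5 mm was the highest of its size and still below every 1.6 mm library. In all, 57 of the 200 genes kept their 4 run means within 1 log2 unit, and the median range of the run means was 1.39 log2 units.

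**Figure D5:**
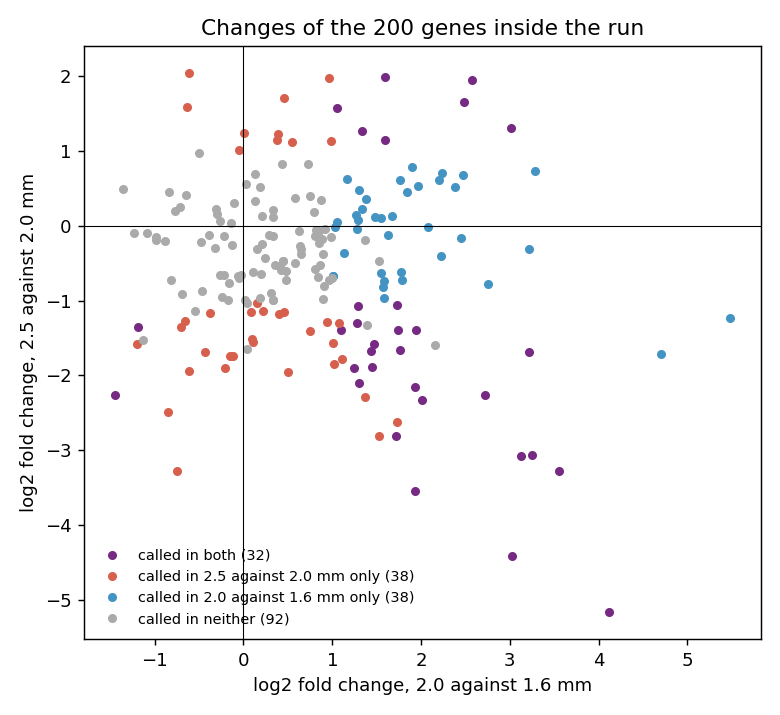
log2 fold change of each of the 200 genes at 2.0 against 1.6 mm (horizontal axis) and at 2.5 against 2.0 mm (vertical axis), from limma with all libraries; colours show in which comparison a gene was called. Both axes share the 2.0 mm libraries, so no relation is read between them; 92 genes were called in neither comparison, 23 were called higher at 2.0 mm and then lower at 2.5 mm, and 7 higher in both.

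The counts inside the run differed between genes that were low and genes that were already measurable before it, and this difference was not tested. Of the 60 genes under 1 FPKM at each smaller size, 24 were called higher and 5 lower at 2.5 than at 1.6 mm, with a median change of 0.74 log2 units, where 9.06% and 30.0% of all tested genes were called. Of the 61 genes with at least 5 FPKM at some smaller size, 10 were called higher and 12 lower, with a median of -0.34. Of the 79 genes between these classes, 17 were called higher and 12 lower, with a median of -0.02. The rule bears on this difference: the more FPKM a gene had before the run, the higher its run means had to be. At 2.0 against 1.6 mm, 27 of the 60, 29 of the 79 and 12 of the 61 were called higher, where 6.26% of tested genes were. At 1.4 against 0.4 mm, 35 of the 61 and 0 of the 60 were called higher, where 11.0% of tested genes were. The classes were set by levels at these same sizes, so nothing is read from either count. A ceiling of 1 FPKM at both sizes makes the 0 nearly certain.

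Features that the rule did not use were read from the gene IDs and the tables. A single transcript entry was listed for 151 of them (75.5%), where 76.0% of tested genes had 1. By the chromosome in their IDs, 37 (18.5%) lay on chromosome 1, where 13.9% of tested genes did, 24 (12.0%) on chromosome 4, where 8.71% did, 14 (7.0%) on chromosome 2, where 11.6% did, and 6 (3.0%) on chromosome 6, where 7.81% did. On the other 8 chromosomes the shares were within 2 percentage points of those of tested genes. In the order of IDs, 16 of the 200 genes (8.0%) had another of them within 5 IDs, where 5.52% of tested genes had 1 of the 200 so near. These 16 formed 8 pairs and no larger set. Of the 200 genes chosen for the run of 1.6 to 2.0 mm 20 had such a neighbour, and of those for 2.0 to 2.5 mm 25. These shares are descriptions with no test.

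Outside the list, the gene whose 10 size means followed the median of the 200 genes most closely was OsKitaake10g165202.v3.1 (Pearson's r = 0.995 over 10 sizes). It had 2.03 to 6.06 FPKM in the run, with a median of 3.97, against 0 to 0.421 FPKM in smaller anthers. It was left out since its means at 1.6, 1.8 and 2.5 mm, of 2.92, 4.46 and 3.66 FPKM, were under 5. The next was OsKitaake12g020300.v3.1 (r = 0.993), which met the rule at rank 267 with a gap of 1.15 and had 5.36 to 12.8 FPKM in the run, with a median of 6.48, against 0.559 to 3.70 FPKM outside it. Both had no overlap between the groups of libraries, at levels below those of most of the 200 genes.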

How the data were processed

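Polyadenylated RNA of anthers was measured in 30 libraries, 3 at each of 10 lengths, grouped by the sample titles. The authors deposited FPKM per transcript entry (48494 entries per library, named by gene ID), and StringTie 2.1.4, HISAT2 2.1.1, Bowtie2 2.5.2, FastQC 0.12 and cutadapt 3.0 are listed, without roles, in the submitters' processing notes. No genome build is given in the sources used. FPKM depend on the composition of a library, and depth is unknown, so no count model was used. Strand use in counting and the handling of near-identical genes are not given.

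FPKM were summed per gene ID, and limma 3.58.1 in R 4.3.3 (lmFit and trended eBayes) modelled log2(FPKM + 1) by size, a factor of 10 levels, in the 26091 genes that reached 1 FPKM in 3 or more libraries, with Benjamini-Hochberg adjustment over all of them. Fold changes are on the log2(FPKM + 1) scale, which understates changes of low genes. The rule and the fit were tested on simulated data. Alternatives were quantile normalization, TPM, a pseudocount of 0.1, the replicate block, the compared sizes alone, no filter, adjusted p alone, and single libraries left out.

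The genes, comparisons and lists were chosen with earlier results of these data known. Named genes are those with the 2 largest gaps, the 2 highest run means, ranks 200 and 201, the 2 largest called rises and 2 largest called falls of each comparison, and the 2 most alike outside the list. The 6 marker lists, of 58 symbols, matched 0 gene IDs. Replicates are biological replicates by the series' design text, and replicate numbers are not stated to pair libraries.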

Additional observations from a re-analysis of the deposited data

How the results depend on the processing

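The 200 genes were chosen again to a large part under each alternative: 151 to 200 of them with a replicate of every size or a single library left out, and 152 to 191 under the others, with 205 to 404 genes meeting the rule. With single libraries left out, 44 to 58 of the 200 were called higher at 2.5 against 1.6 mm. A pseudocount of 0.1 gave 98 higher at 1.4 against 0.4 mm, 16 higher at 1.4 against 1.2 mm, 37 higher and 0 lower at 2.0 against 1.6 mm, and 9 higher and 32 lower at 2.5 against 2.0 mm. Quantile normalization gave 1 lower at 1.4 against 0.4 mm and 12 higher at 1.4 against 1.2 mm. Fits on the compared sizes alone, which rest on 6 libraries, gave 0 higher at 1.4 against 1.2 mm, 7 lower at 2.0 against 1.6 mm, and 9 higher and 7 lower at 2.5 against 2.0 mm. No filter and TPM each gave 1 lower at 2.0 against 1.6 mm. Single libraries left out gave 36 to 79 higher and 1 to 3 lower at 1.4 against 0.4 mm, 1 to 30 higher at 1.4 against 1.2 mm, 53 to 61 higher and 0 to 2 lower at 2.0 against 1.6 mm, 13 to 18 higher and 31 to 84 lower at 2.5 against 2.0 mm, and 19 to 58 lower at 2.5 against 1.6 mm. Within 1 ID 6 genes had a neighbour and within 10 IDs 28. The cause of these differences was not tested. Apart from the fits on the compared sizes alone, shares of tested genes called were not taken under these alternatives. The median change of the 200 at 2.5 against 1.6 mm was -0.0399 after TPM, and -0.20 to 0.385 with single libraries left out (-0.00249 without 1.6 mm replicate 3). That of all tested genes at 1.4 against 1.2 mm was -0.0448 after TPM, -0.0145 to 0.171 with single libraries left out (the lowest without 1.4 mm replicate 2), and -0.0131 without that library and 1.2 mm replicate 1.

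Of the 18 changes of named genes, 8 were called under every alternative run and 0 changed sign. In the 5 comparisons tested, deviations of libraries with the same replicate number correlated at -0.205 to 0.179, and 6 of 15 pairs correlated best with their own number. This does not settle whether libraries were paired. The sizes 1.8 and 2.0 mm, whose names share the numbers 10, 11 and 13, were not among these comparisons. With the replicate block the counts were 54 for higher at 1.4 against 0.4 mm and 52 higher and 31 lower at 2.5 against 1.6 mm, the others being those of the fit without it. Depth is unknown, so genes near 0 FPKM outside the run cannot be given a limit of detection.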
